A study of Mus musculus with 2 samples.

Results

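The lipoprotein lipase axis and the fatty acid uptake genes of the heart were examined as 10 genes chosen by symbol: Lpl, Angptl4, Gpihbp1, Lmf1, Vldlr, Cd36, Slc27a1, Fabp3, Fabp4 and Fabp5. They are 10 of the 22882 gene symbols in the files, and all 10 were among the 10489 genes kept, for which neither library was at 0 and the higher of them reached 1 FPKM. FPKM counts fragments relative to transcript length and to the mapped fragments of the library, so that levels can be compared between genes of different length. Heart RNA came from mice of 23 days on the C57BL6/J strain background, of mixed sex, without treatment. The control mice were Med1fl/fl, carrying loxP sites in both copies of the Mediator subunit gene Med1. The csMed1-/- mice carried the same floxed alleles and in addition a Cre transgene driven by the α-MyHC promoter, which is active in cardiomyocytes, so that other cells of the heart were not targeted. RNA of 5 hearts per genotype was pooled and 1 library was sequenced from each pool. There are therefore no replicates, the spread between mice is unknown, and every difference below is a ratio between 2 pools without a test.

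Heart muscle takes most of its fuel from fatty acids, and much of that arrives as triglyceride in circulating lipoproteins. Lipoprotein lipase is made largely by cardiomyocytes, folded with the help of LMF1, and carried by GPIHBP1 to the inner face of capillaries, where ANGPTL4 can inactivate it. The freed fatty acids enter through CD36 and fatty acid transport proteins, and FABP proteins carry them inside the cell. Several of these genes are known targets of PPAR nuclear receptors, for which MED1 is a coactivator.

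Fabp3, Fabp4 and Fabp5 encode closely related cytoplasmic carriers, and their sequences are shown because the reads have to tell them apart. The lines give the first 60 coding bases, from exon 1 of each GENCODE M21 transcript on GRCm38, 5′ to 3′ on the coding strand, with capitals for a base that both other genes share in the pairwise alignments of the whole coding sequences. They lie at chr4:130308778-130308837 on the plus strand for Fabp3, at chr3:10208452-10208511 on the minus strand for Fabp4 and at chr3:10012640-10012699 on the plus strand for Fabp5.
Fabp3: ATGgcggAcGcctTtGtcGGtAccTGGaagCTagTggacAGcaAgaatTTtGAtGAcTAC
Fabp4: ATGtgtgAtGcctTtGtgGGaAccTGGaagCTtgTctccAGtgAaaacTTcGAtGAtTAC
Fabp5: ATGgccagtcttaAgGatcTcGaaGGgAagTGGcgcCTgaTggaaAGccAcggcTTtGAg
Over the aligned coding sequence, Fabp3 and Fabp4 shared 65.1% of bases, Fabp4 and Fabp5 60.6%, and Fabp3 and Fabp5 57.3%. The longest run without a mismatch was 14 bases, gtgggctttgccac, between Fabp3 and Fabp4. Reads were 50 bases long, so a read without errors from the coding sequence of 1 of these genes could not match another of them throughout.

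Copies elsewhere in the genome were closer. Of the 50-base windows of the Fabp3 transcript, 37.3% also occurred in another annotated gene, mostly in the pseudogene Fabp3-ps1, which held 29.2% of them. For Fabp5 the share was 21.1%, with 19.6% in Gm6166. It was 1.81% for Lpl and 1.75% for Slc27a1, and 0 for the other 6 genes. How the authors' alignment divided reads from such copies is not given in the sources used here. The Fabp3 and Fabp5 levels are uncertain to the extent of the copies. Fabp3 is also overlapped at its 3′ end by 81 bases of Zcchc17 and at its 5′ end by 80 bases of Gm10570, both on the opposite strand. The 37.3% includes the windows in these overlaps, 32 in Zcchc17 and 31 in Gm10570, beside 226 in Fabp3-ps1. Windows in the overlaps are the same place read on the other strand and not copies elsewhere. Zcchc17 was at 15.2 FPKM in the control and 15.4 FPKM in the csMed1-/- library, far below Fabp3.

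The libraries were checked before the genes were compared. Med1 itself was at 3.38 FPKM in the control and 0.412 FPKM in the csMed1-/- library, a log2 ratio of -3.04. Both libraries carried heart muscle RNA, with Tnnt2 (cardiac troponin T) at 2280 and 1119 FPKM, although Actc1 (cardiac actin) was listed at 0 in control and at 9189 FPKM in csMed1-/- heart. The adipocyte genes Adipoq and Plin1 were listed at 0 in control and at 0.0101 and 0.00825 FPKM in csMed1-/- heart. Over all 10489 genes, 1886 were lower and 1423 higher in csMed1-/- heart past 2-fold, and the median log2 ratio was -0.07 with quartiles at -0.72 and 0.55. The lower genes were 57.0% of these calls, 38.9% when ratios were taken relative to the endothelial markers and 20.5% relative to the cardiomyocyte markers. The files used here hold no read counts, and how many reads a value rests on is unknown. In 64 of 2461 rows of low values the libraries differed by a factor of 0.721, to within 0.5%, and if that is the worth of 1 read, depth was 1.39 times as high for csMed1-/- as for control. Only factors below 1 were searched and the one with most rows was taken. Which library was deeper was therefore not tested.

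Among the 10 genes, 3 were lower past 2-fold in csMed1-/- heart (Lpl, Fabp3 and Slc27a1), against a background of 18.0% of all genes kept. Another 2 were higher past 2-fold (Angptl4 and Gpihbp1), against a background of 13.6%, and 5 were within 2-fold (Lmf1, Vldlr, Cd36, Fabp4 and Fabp5). As shares of the 10 genes these counts are 30% and 20%, and with so few genes each count is close to what those backgrounds give. Counting ratios of any size, 7 were lower and 3 higher, and the median log2 ratio was -0.25. The members were spread from -2.49 for Lpl to 3.24 for Angptl4 on the log2 scale. In RNA of whole hearts, fewer cells of a type and less RNA per cell cannot be told apart.

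**Figure D1:**
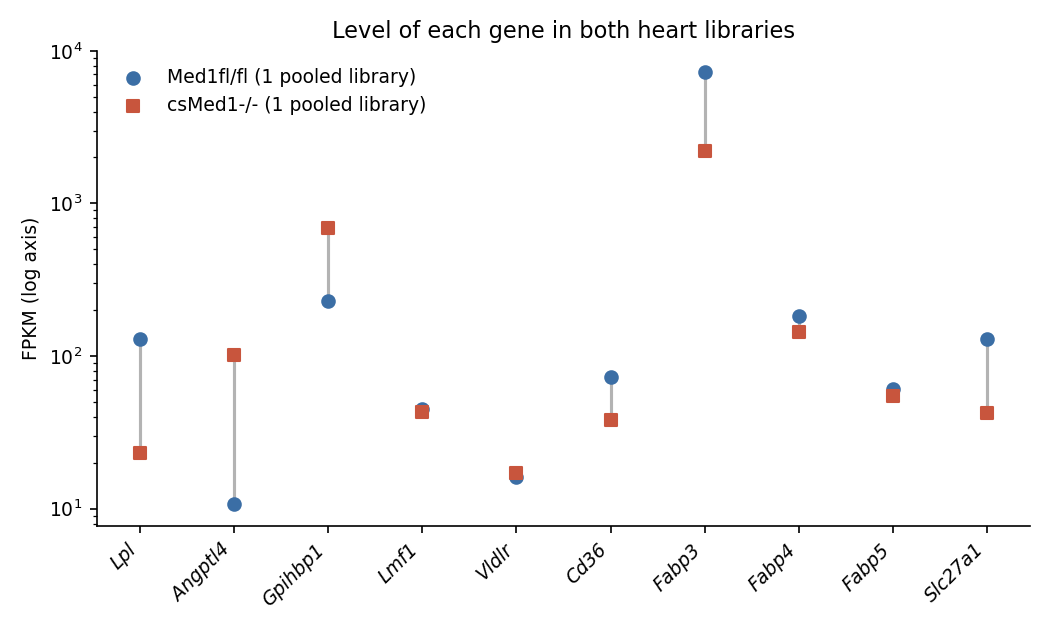
FPKM of each of the 10 genes (log axis) in the Med1fl/fl library (circles) and the csMed1-/- library (squares), 1 pooled library each, without error bars because there are no replicates. Lpl and Angptl4 change places, from 129 and 10.7 FPKM in control to 23.0 and 101.5 FPKM in csMed1-/- heart, whereas the symbols of Lmf1, Vldlr and Fabp5 nearly coincide.

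Lpl, the enzyme that cleaves triglyceride from lipoproteins, lies at chr8:68880491-68907448 on the plus strand. It was at 129 FPKM in the control and 23.0 FPKM in the csMed1-/- library. The level was thus 5.61-fold lower, a log2 ratio of -2.49, and Lpl moved from rank 769 to rank 3044 among the gene symbols ordered by level. Of all genes kept, 3.07% had a lower ratio. Among the 10 genes, Lpl had the lowest ratio.

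Angptl4, the secreted inhibitor of the lipase, lies at chr17:33773750-33781830 on the minus strand and went the other way. Its level was 10.7 FPKM in the control and 101.5 FPKM in the csMed1-/- library, 9.45-fold higher with a log2 ratio of 3.24. Only 1.32% of the genes kept had a higher ratio, and its rank moved from 4717 to 1038. In control heart Angptl4 had the lowest level of the 10 genes, and in csMed1-/- heart it was above Lpl, Lmf1, Vldlr, Cd36, Slc27a1 and Fabp5.

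Gpihbp1, the capillary anchor of the lipase, lies at chr15:75596628-75599481 on the plus strand. It was at 229 FPKM in the control and 693 FPKM in the csMed1-/- library, 3.03-fold higher, and 6.50% of genes had a higher ratio. In csMed1-/- heart it was second to Fabp3 among the 10 genes. Lmf1, the chaperone needed for an active lipase, lies at chr17:25579085-25662826 on the plus strand and was at 45.1 FPKM in the control and 42.9 FPKM in the csMed1-/- library. Its log2 ratio of -0.07 equals the median of all genes to 2 decimals, and its sign depends on the scaling, with 0.21 relative to the endothelial markers and 0.57 relative to the cardiomyocyte markers.

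Ratios of genes inside a library do not depend on how the libraries were scaled. The Lpl level was 12.0 times that of Angptl4 in control heart and 0.227 times in csMed1-/- heart, where Angptl4 was 4.41 times Lpl. This ratio of enzyme to inhibitor transcripts differed 53.1-fold between the libraries. Lpl was 0.565 times Gpihbp1 in control and 0.0333 times in csMed1-/- heart, a 17.0-fold difference. Against Lmf1, which encodes the folding factor, Lpl went from 2.87 to 0.537 times. Of the 2 genes higher past 2-fold, Gpihbp1 was at 21.3 times Angptl4 in control and 6.83 times in csMed1-/- heart.

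**Figure D2:**
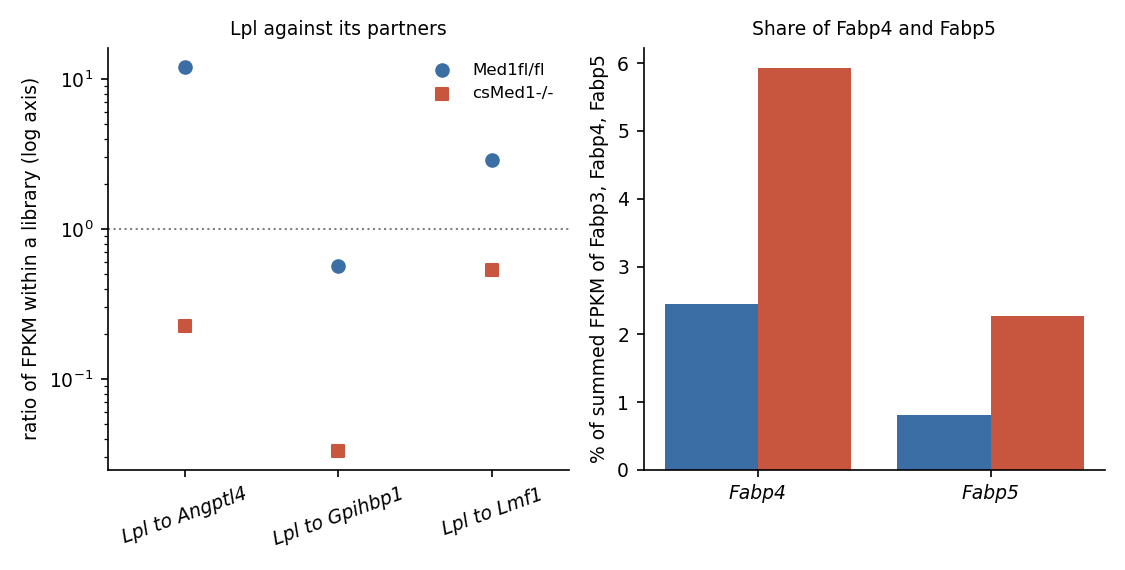
Left, the FPKM of Lpl divided by that of Angptl4, Gpihbp1 or Lmf1 in the same library (log axis, dotted line at equal levels), for Med1fl/fl (circles) and csMed1-/- (squares). Lpl is above Angptl4 and Lmf1 in control, at 12.0 and 2.87 times, and below all 3 in csMed1-/- heart. Right, the percentage of the summed FPKM of Fabp3, Fabp4 and Fabp5 that came from Fabp4 and from Fabp5, in the same colours, which is higher for both in csMed1-/- heart (5.93% and 2.28%).

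GPIHBP1 is made by capillary endothelial cells, in which the α-MyHC-Cre transgene is not active, so Gpihbp1 was set beside a list of 12 endothelial markers. Their median log2 ratio was -0.28, with 3 lower and 1 higher past 2-fold, against 18.0% and 13.6% of all genes kept. Pecam1, a junction protein of endothelium, was at 91.8 and 76.9 FPKM, Cdh5 (VE-cadherin) at 129 and 92.2 FPKM, and Kdr (a VEGF receptor) at 36.5 and 11.8 FPKM in control and csMed1-/- heart. Gpihbp1 had a higher ratio than 11 of the 12. The exception was Cldn5, a tight junction protein, with a log2 ratio of 3.11. The next highest was Esam, an endothelial adhesion molecule, at 0.56, and the lowest was Tek, the angiopoietin receptor, at -1.90. Egfl7 at 0.44 and Eng at 0.25 were also higher in csMed1-/- heart, and all the rest were lower. Summed over the list, the markers went from 888 to 1283 FPKM. Without Cldn5, which was left out after its value was seen, they went from 831 to 793 FPKM, so the direction of the sum rests on that gene. Gpihbp1 amounted to 25.8% of the full sum in control and 54.0% in csMed1-/- heart, and to 27.5% and 87.4% of the sum without Cldn5. The share of these cells in the pools was not measured.

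Vldlr, the receptor that binds triglyceride-rich lipoproteins, lies at chr19:27216484-27254231 on the plus strand and was the only member listed on more than 1 row. Summed over its 2 rows it was at 16.2 FPKM in the control and 17.2 FPKM in the csMed1-/- library, a log2 ratio of 0.09. The rows went opposite ways. The first was at 9.41 and 3.92 FPKM, a log2 ratio of -1.26, and the second at 6.74 and 13.3 FPKM, a log2 ratio of 0.98. The second row made up 41.7% of the sum in control and 77.2% in csMed1-/- heart. Rows of the files stand in an order by chromosome and strand, and 86.6% of 20070 symbols with a single row had all 8 neighbouring annotated rows on their own strand and chromosome. For the first Vldlr row all 8 neighbours were on the plus strand, which is the strand of the gene, and for the second all 8 were on the minus strand. What the second row counts is not given in the sources used here. With the first row alone, Vldlr would join the genes lower past 2-fold, and with only the row that reached the higher value its log2 ratio would be 0.98.

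Cd36, the main membrane receptor for long-chain fatty acids, lies at chr5:17781690-17888801 on the minus strand. It was at 73.3 FPKM in the control and 37.9 FPKM in the csMed1-/- library, 1.93-fold lower and just inside the 2-fold limit. Slc27a1, which encodes the transport protein FATP1, lies at chr8:71568882-71587302 on the plus strand. Its level was 130 FPKM in the control and 42.5 FPKM in the csMed1-/- library, 3.06-fold lower, and 8.47% of genes had a lower ratio. In control heart Slc27a1 was at the level of Lpl, with ranks 767 and 769. Cd36 was 0.565 times Slc27a1 in control and 0.893 times in csMed1-/- heart, so that the 2 transporters were closer in level in the latter.

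**Figure D3:**
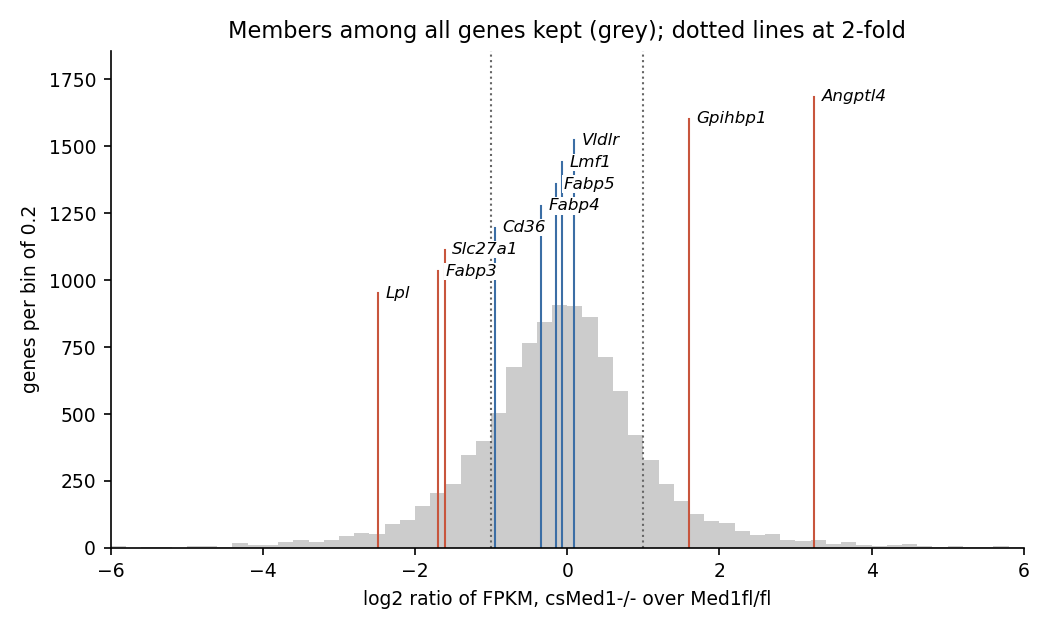
Number of genes per bin of 0.2 (grey) by log2 ratio of FPKM, csMed1-/- over Med1fl/fl, for the 10489 genes kept, of which 23 lie beyond the axis. Vertical lines mark the 10 genes, in red past 2-fold (dotted lines) and in blue within it. Lpl (-2.49) and Angptl4 (3.24) stand in the lower and the upper tail.

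Promoter windows were searched because several of these genes are known PPAR targets. RefSeq windows on GRCm38.p6, the 250 bases before a transcript start, were found for 5 of the 10 genes, 8 windows in all: Fabp3, Cd36, Slc27a1, Lmf1 and Vldlr. Both strands were read for AGGTCA, the core element of nuclear receptor sites, for CCAAT, and for the direct repeat type DR1, which is 2 copies of AGGTCA spaced by 1 base. AGGTCA occurred in 1 of the 8 windows, that of Cd36, against 14.0% of all 32851 windows. CCAAT occurred in 4 of the 8, against 33.8% of all windows, and the exact DR1 in 0, against 0.0335%. So rare an element was to be missing from 8 windows in any case. Lpl, Angptl4, Gpihbp1, Fabp4 and Fabp5 had no window, so the search does not cover them. A match of letters is not a binding site, and no match says only that these letters are not in this window. The Cd36 window and the first of the 3 Slc27a1 windows are shown for the lower transporters, with the matches in capitals. Neither holds an annotated exon. The Cd36 window lies inside the annotated gene, before an internal start, and the Slc27a1 window is the one of its 3 that ends before the annotated gene. They are chr5:17835897-17836146 on the minus strand and chr8:71568621-71568870 on the plus strand.
Cd36: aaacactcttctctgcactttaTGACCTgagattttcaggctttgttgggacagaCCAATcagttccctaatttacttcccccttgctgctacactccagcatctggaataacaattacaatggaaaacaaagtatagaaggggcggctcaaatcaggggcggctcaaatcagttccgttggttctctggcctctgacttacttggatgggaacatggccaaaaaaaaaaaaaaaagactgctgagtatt
Slc27a1: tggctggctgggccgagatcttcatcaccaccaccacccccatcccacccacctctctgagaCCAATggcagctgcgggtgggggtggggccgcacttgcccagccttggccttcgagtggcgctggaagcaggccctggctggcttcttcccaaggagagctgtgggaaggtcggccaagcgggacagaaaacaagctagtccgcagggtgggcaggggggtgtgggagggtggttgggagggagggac
In Cd36 the AGGTCA element, read as its reverse complement TGACCT, began 228 bases before the start and CCAAT began 195 bases before it. The Slc27a1 window held CCAAT 188 bases before the start and no AGGTCA. The third Slc27a1 window, chr8:71570344-71570593 inside the gene, was also without an annotated exon and held CCAAT 128 bases before its start.

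Fabp3, the carrier of heart and skeletal muscle, lies at chr4:130308595-130315463 on the plus strand and had the highest level of the 10 genes in both libraries. It was at 7224 FPKM in control, the seventh highest of all gene symbols, and at 2218 FPKM in csMed1-/- heart, where it ranked 43. The level was 3.26-fold lower, a log2 ratio of -1.70, and 7.58% of genes had a lower ratio. Fabp4, known from adipocytes and capillary endothelium, lies at chr3:10204088-10208576 on the minus strand and was at 182 FPKM in the control and 143 FPKM in the csMed1-/- library, a log2 ratio of -0.35. Fabp5, also made by endothelium and macrophages, lies at chr3:10012548-10016607 on the plus strand and was at 60.9 and 55.0 FPKM, a log2 ratio of -0.15. The last 2 ratios change sign relative to the cardiomyocyte markers, to 0.30 for Fabp4 and 0.50 for Fabp5, and that of Fabp5 also relative to the endothelial markers, at 0.13.

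The 3 carriers summed to 7468 FPKM in the control and 2416 FPKM in the csMed1-/- library. Fabp3 made up 96.7% and 91.8% of the sum, Fabp4 2.44% and 5.93%, and Fabp5 0.816% and 2.28%. Fabp3 went from 39.6 to 15.5 times Fabp4 and from 118.6 to 40.3 times Fabp5. Between Fabp4 and Fabp5, which are neighbours on chromosome 3, the ratio was 2.99 in control and 2.61 in csMed1-/- heart.

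Markers of other cell types differed between the libraries as well. For the counts that follow, 18.0% of all genes kept were lower and 13.6% higher past 2-fold. The 10 fibroblast markers summed to 593 FPKM in the control and 1456 FPKM in the csMed1-/- library, with 5 of 10 higher and 2 lower past 2-fold, from Dpt at -1.66 to Postn, a matrix protein of activated fibroblasts, at 4.13. The 10 macrophage markers summed to 415 and 488 FPKM, with 1 higher past 2-fold (Cd14 at 1.29), Fcgr1 lowest at -0.92, and Csf1r, the receptor that defines the lineage, at 24.3 and 21.3 FPKM. The 10 smooth muscle and pericyte markers had a median log2 ratio of -0.13, with 2 lower and 3 higher past 2-fold, from Myh11 at -1.04 to Tagln at 1.91. They summed to 2619 and 5395 FPKM with Des, a filament protein that cardiomyocytes also make, and to 748 and 544 FPKM without it. Of the 10 adipocyte markers, 7 were listed at 0 in control and 4 in csMed1-/- heart, Adipoq and Plin1 in control among them. A listed 0 need not mean absence, since Actc1 was also listed at 0 in control. The 2 kept were Lipe at 0.05 and Cidea at 1.11, and the list summed to 85.8 and 131 FPKM. Of the erythroid markers 3 were in the files, summing to 36.5 and 85.7 FPKM, with Alas2 at 1.20 and Slc4a1 at 2.30. The 11 cardiomyocyte markers in the files summed to 58638 and 37634 FPKM with Actc1, which was listed at 0 in control, and to 58638 and 28445 FPKM without it. The 10 kept had a median log2 ratio of -0.64, from Pln at -3.78 to Actn2 at 0.56, with 4 lower past 2-fold. Lpl, Slc27a1, Fabp3 and Cd36 had lower ratios than that median. Taken relative to it, 2 of the 10 genes were lower past 2-fold (Lpl at -1.85 and Fabp3 at -1.06), against a background of 8.17%. Another 2 were higher past 2-fold (Angptl4 at 3.88 and Gpihbp1 at 2.24), against a background of 31.7%. Slc27a1 was then at -0.97 and Cd36 at -0.31. The part of cell composition in these values was not tested.

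**Figure D4:**
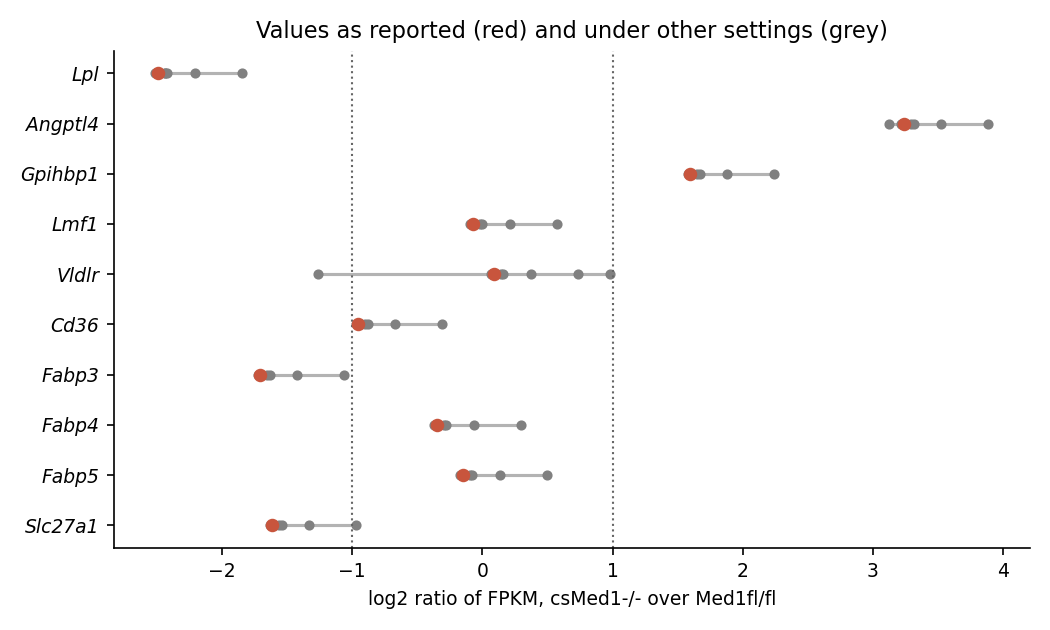
Log2 ratio of each of the 10 genes, csMed1-/- over Med1fl/fl, as reported (red) and with other pseudocounts, scalings, reference lists or Vldlr rows (grey), with a line over the range and dotted lines at 2-fold. Lpl runs from -2.51 to -1.85 and Angptl4 from 3.13 to 3.88, whereas Vldlr runs from -1.26 to 0.98.

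Other genes of lipases and their regulation were divided. The list of 22 includes other lipases, such as Lipe, beside genes that act on lipoprotein lipase. Of the 16 kept, 4 were lower and 4 higher past 2-fold, against 18.0% and 13.6% of all genes kept, with a median log2 ratio of 0.31. The lowest was Cd93, an endothelial surface protein, at -1.82, and the highest Pcsk5, a proprotein convertase able to cleave the lipase, at 2.27 and from only 0.573 to 2.75 FPKM. Of 7 lipoprotein receptor and assembly genes kept, Lrp1, a large endocytic receptor, was highest at 1.22 and Mttp, needed to load lipid on apolipoprotein B, lowest at -1.08, with the other 5 within 2-fold. Vldlr, by its sum, lay below the median of that list, 0.57.

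The remaining transport proteins were much less abundant than Slc27a1, apart from Slc27a4 at 21.5 and 26.4 FPKM. Slc27a3 was at 0.859 and 1.24 FPKM. Slc27a2, Slc27a5 and Slc27a6 were at 0.176, 0.0993 and 0.0342 FPKM in control and at 0.00558, 0.0264 and 0.0121 FPKM in csMed1-/- heart, too low to be kept. Slc27a1 thus carried the largest share of the family in both libraries and was the one past 2-fold among those kept. In the wider list of transporters and binding proteins, 7 of 16 genes were kept. Of these, 2 were lower and 0 higher past 2-fold, against 18.0% and 13.6% of all genes kept. Fabp1, the liver carrier, was lowest at -2.47 with only 2.50 and 0.450 FPKM, and Zdhhc4, a palmitoyl transferase that acts on CD36, highest at 0.92.

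Genes linked to the control of fatty acid uptake by endothelium were listed next, and all 12 were kept. The list is not restricted to genes made by endothelial cells. Its median log2 ratio was -0.77, with 4 lower and 1 higher past 2-fold, against 18.0% and 13.6% of all genes kept. Aplnr, the apelin receptor, went from 46.6 to 2.41 FPKM, a log2 ratio of -4.27, and Sox17, an endothelial transcription factor, was highest at 1.37. Gpihbp1 was above every one of these 12 in ratio.

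PPAR nuclear receptors, their RXR partners and coregulators were then examined, 12 of 13 of which were kept. Past 2-fold 5 were lower and 0 higher, against 18.0% and 13.6% of all genes kept. The median log2 ratio was -0.55, beside -0.64 for the cardiomyocyte markers kept. Ppara, the main receptor of the family in the heart, went from 12.4 to 1.66 FPKM (-2.90), while Ppard was at 32.7 and 27.0 FPKM (-0.28) and Pparg at 5.64 and 4.02 FPKM (-0.49). Of the RXR genes, Rxrg was at -2.36, Rxra at -0.60 and Rxrb at 0.01. The coactivators Ppargc1a, Ppargc1b and Ncoa1 were at -2.21, -1.47 and -1.04 and Ncoa2 at -0.14, and the corepressor Ncor1 at -0.37. The Ppargc1b value is a sum of 2 rows, of which the first was at 1.38 and 1.37 FPKM and the second at 3.49 and 0.384 FPKM. Nrip1, a further corepressor, was too low to be kept, at 0.282 and 0.502 FPKM. The members with the lowest ratios, Lpl (-2.49), Fabp3 (-1.70), Slc27a1 (-1.61) and Cd36 (-0.95), stood on the same side as Ppara. Angptl4, also a PPAR target, stood on the other side at 3.24. Of the cardiomyocyte markers kept, 4 were lower and 0 higher past 2-fold. Whether the lower Ppara level bears on any of these genes was not tested.

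Of 20 other PPAR target genes kept, 10 were lower past 2-fold and 1 higher, against 18.0% and 13.6% of all genes kept. Their median log2 ratio was -0.95, beside -0.64 for the cardiomyocyte markers kept. Of the targets, Acadm, the medium-chain acyl-CoA dehydrogenase of β-oxidation, was lowest at -2.78, and Ucp2, a mitochondrial carrier, highest at 1.26. Angptl4 is outside this range, and Lpl, Fabp3, Slc27a1 and Cd36 are within it. Because Angptl4 is also known to respond to hypoxia and glucocorticoids, 2 further lists were counted. Of 15 hypoxia-response genes 3 were higher and 2 lower past 2-fold, with a median of 0.35, from Egln1, an oxygen sensor, at -1.87 to Car9, a carbonic anhydrase, at 5.97, summed over 4 rows, of which 3 were listed at 0 in control, and from only 0.0949 to 5.96 FPKM. Of 10 glucocorticoid-response genes 3 were higher and 1 lower past 2-fold, with a median of 0.14, from Klf9, a transcription factor summed over 2 rows at -0.47 and -2.30, at -1.33 to Mt2, a metallothionein, at 3.28. Of all genes kept, 13.6% were higher and 18.0% lower past 2-fold, and lists this small say little beside those shares. Whether hypoxia or glucocorticoids bear on Angptl4 in these hearts was not tested.

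**Figure D5:**
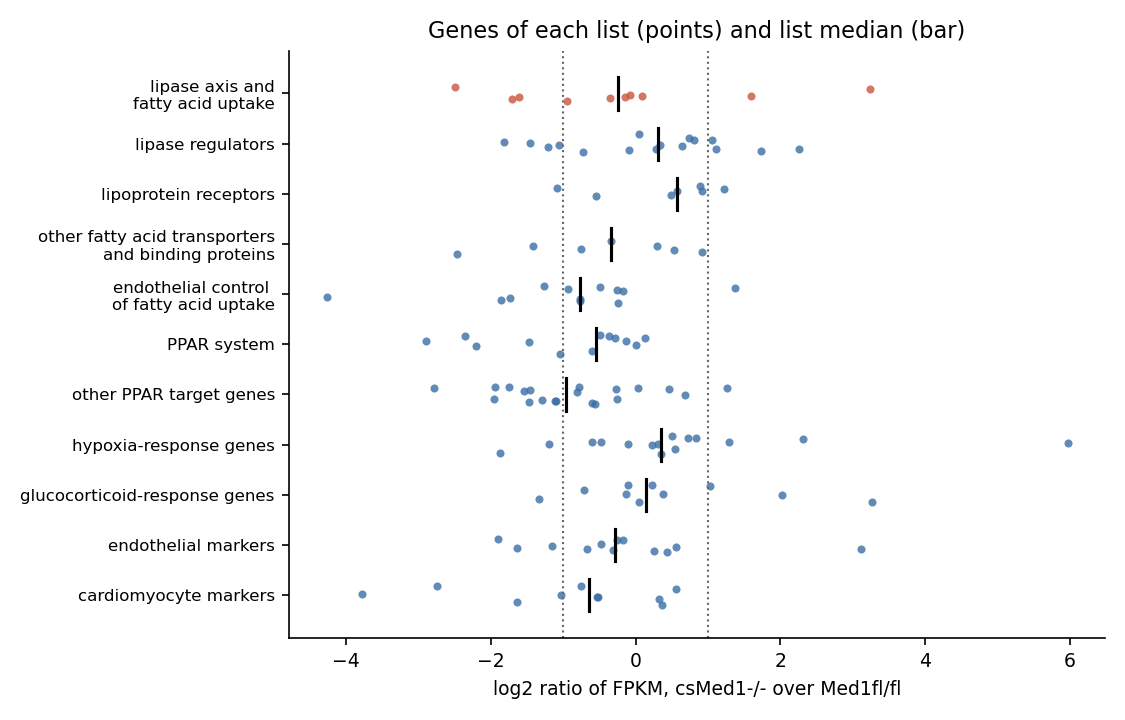
Log2 ratio of FPKM, csMed1-/- over Med1fl/fl, for each gene kept (points, spread vertically only for legibility) in the 10 genes (red, top) and in the lists set beside them (blue), with the list median as a bar and dotted lines at 2-fold. The 10 genes reach further up than the PPAR lists, because of Angptl4 at 3.24, with a median of -0.25.

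Genes with levels closest to those of Lpl and Angptl4 in both libraries were found by the distance between their log2 FPKM values, which rests on 2 libraries only. Nearest to Lpl were Fblim1 (147 and 22.6 FPKM), Pabpc4 (121 and 26.8 FPKM) and Myzap (109 and 21.3 FPKM), at distances of 0.19, 0.23 and 0.27. Nearest to Angptl4 were Ahnak (12.6 and 88.0 FPKM), Ppp1r15a (13.7 and 90.1 FPKM) and Actn1 (9.60 and 77.5 FPKM), at distances of 0.31, 0.39 and 0.42. With 2 values per gene, likeness of this kind describes a level and a ratio and nothing more.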

How the data were processed

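RNA of 5 hearts per genotype was pooled, enriched for poly(A) RNA and sequenced as directional single-end libraries of 50 bases. The authors aligned the reads to mm10 with TopHat 2.0.8b and deposited FPKM values per known gene from Cufflinks and Cuffdiff 2.1.1. The submitters' processing notes also name STAR 2.4.0h, Bowtie2 and DESeq2, with no role given. The Cuffdiff scaling and strand setting are not given in the sources used here. FPKM is scaled per library, so a few very abundant transcripts move all other values.

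The deposited values were used unchanged. Rows sharing a symbol (412 of 22882 symbols, 23424 rows) were summed, genes were kept where neither library was at 0 and the higher reached 1 FPKM, and the csMed1-/- to Med1fl/fl ratio was called past 2-fold. With 1 library per genotype no test was made. The calling code was first run on simulated data with planted changes well past the threshold and little noise. That run checked the code and says nothing about the calls made here. The genes named were all 10 members, Med1, the highest and lowest ratio of each list, all PPAR system genes but 1 that is not reported here, Slc27a2 to Slc27a6, defining markers, and the 3 genes nearest to Lpl and to Angptl4. Esam, Egfl7, Eng and Cldn5, and the genes that share windows or overlap with members, were named after their values or positions were seen. Myh6 is not analysed here. The members and lists were chosen with earlier results of these data known.

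Positions and transcripts came from GENCODE M21 and promoters from RefSeq. Alternatives were pseudocounts, filters, scalings, reference lists, row choices and a threshold of 4-fold. Python 3.11.15, numpy 2.4.6, pandas 2.3.3 and matplotlib 3.10.9 were used.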

Additional observations from a re-analysis of the deposited data

How the results depend on the processing

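Of 72 values of the 10 genes under other settings that could change them, 60 kept their call and lay within 1.5-fold of the reported value, 12 moved, and 0 of those past 2-fold changed sign. Of the 12, 10 came from taking ratios relative to the cardiomyocyte markers, which adds 0.64 to every log2 ratio. That is more than 1.5-fold, so all 10 genes had to move. The other 2 came from the choice of Vldlr row, 1 of which (the row on the gene's strand) was chosen after seeing the data. The other scalings and the endothelial reference also shift all genes alike, by at most 0.28, so there only a call could change. None of these shifts could change the sign of a ratio past 2-fold. With a threshold of 4-fold in place of 2-fold, 1 gene was lower (Lpl) and 1 higher (Angptl4) in place of 3 and 2. Of all 10489 genes kept, 992 then passed in either direction in place of 3309. In the 8 pathway lists (marker lists not counted) 11 genes passed in place of 42. A stricter threshold must give fewer. No share is given for these lists, so their counts are not a result about them. The count over all genes was 5686 of 15930 with no filter on low values and 1706 of 5426 at 10 FPKM or more in either library, since more or fewer genes enter. The number of lower members was 2 relative to the cardiomyocyte markers and 4 with the Vldlr row on the gene's strand. With a pseudocount of 1 FPKM, Lpl to Angptl4 was at -5.56 in place of -5.73 on the log2 scale, and Lpl to Gpihbp1 at -4.03 in place of -4.09. The choice of row could not change these ratios, since each of these genes has 1 row. No paired analysis was possible because each genotype has 1 pooled library. Absolute depth is unknown, and values under 1 FPKM may rest on few reads.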
